A study of Mus musculus with 9 samples.

Results

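The hearts described here had been treated with extracellular vesicles or with culture medium alone, and they account for 5 of the 9 arrays of the series. The sample titles gave the members: 3 arrays titled as vesicle hearts and 2 titled as control hearts. All came from immunodeficient nude mice whose left anterior descending coronary artery had been tied permanently. Mice with an ejection fraction below 50% were taken into the study and treated 3 weeks after the infarct, and whole hearts were explanted 6 weeks after treatment. A vesicle heart had received the vesicles that 500000 cardiovascular progenitor cells secreted in 48 hours, and a control heart had received alpha-MEM, a cell culture medium. The labels describe the route, echo-guided injection through the closed chest at 3 sites around the infarct, for cell grafts. The titles place vesicle array 1 and control array 1 in an experiment numbered 9, and vesicle arrays 2 and 3 and control array 2 in an experiment numbered 1. They also carry a VTS number, not explained in the labels, which vesicle array 2 shares with control array 2 and vesicle array 3 does not. The 3 arrays of cell-treated hearts entered the fit to help estimate the spread, and 1 array of a sham heart, pierced by the needle without injection in experiment 9, is given beside some values.

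Extracellular vesicles are membrane-bound particles, exosomes among them, that carry proteins, lipids and RNA out of the cell that makes them. After an infarct, dead heart muscle is replaced by a scar that fibroblasts build from collagens and matricellular proteins, while the surviving muscle depends on mitochondrial oxidation of fatty acids and tends to lose oxidative capacity as the heart fails. Nude mice lack a thymus and so most T cells, but keep macrophages, natural killer cells and interferon signalling.

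The arrays gave a log2 level for 30142 genes with 1 symbol. A gene was called bright where its mean over the 5 vesicle and control arrays exceeded 7.21, the mean of these arrays' 95th percentiles of negative control probe sets. This left 6681 bright genes, 4833 of them protein coding, which are the genes described below. Of these bright genes 125 exceeded the limit only in the mean of the group where they were higher, among them Slc38a1, Ddit4, Timp4, Vsig2, H2-Q4 and Irgm1 of the genes described, so that their difference helped them pass. The labels leave unsaid whether the arrays came from separate animals, so p-values measure only the spread between these arrays. The label of heart tissue was borne out by its markers: 19 of 19 measured cardiac muscle identity genes were bright, and their mean level lay between 10.07 and 10.13 on the 5 arrays. Cardiac troponin T (Tnnt2) stood at 13.15, 13.14 and 13.11 on vesicle arrays 1 to 3 and at 13.16 and 13.16 on control arrays 1 and 2. No T and NK cell, granulocyte, blood cell or thymus marker was bright.

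Vesicle array 3 stood apart through transcripts of the lung. Surfactant protein C (Sftpc), made by alveolar cells, stood at 9.75 there, against 4.44 to 4.52 on the other vesicle and control arrays and 6.35 on the sham array. The mean over 16 lung markers was 6.61 on vesicle array 3, from 5.28 to 5.36 on the other 4 arrays and 5.48 on the sham array. Only 1 of these 16 markers was bright over the 5 arrays. Counts for vesicle arrays 1 and 2 alone are therefore added below where they moved a count of a list by over 1.5 times, and for a few other lists, and the part of the lung transcripts in other differences was not tested. In whole hearts, fewer cells of a type and less RNA per cell cannot be told apart.

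Single genes did not separate the treatments at the threshold set. With the experiment as a block, 0 of 30142 genes (0.0%) and 0 of 6681 bright genes (0.0%) passed an adjusted p of 0.05 in limma's test, with a lowest adjusted p of 0.235 over all genes and 0.475 among bright genes. At an unadjusted p under 0.05 there were 1942 genes (6.44%), of which 477 were bright (7.14% of bright genes). Of these bright genes 331 were higher after vesicles (4.95%) and 146 lower (2.19%). The split turned on the scaling, with 219 higher and 256 lower after quantile normalization and 426 and 68 with arrays centred on the median. It turned on single arrays too, with 163 higher and 237 lower without vesicle array 2 and 162 and 193 without control array 2. The median standard error of a bright gene was 0.049. Differences were small: 13 bright genes had a fitted difference beyond 0.5 on the log2 scale, or 1.41-fold. Of the settings run, only leaving out control array 1 changed the count of 0 genes at an adjusted p of 0.05. That fit has 1 control array, so it cannot show whether control array 1 hid differences. With that array left out, and the spread of the 1 remaining control taken from the other groups, 823 genes passed (2.73%), 623 of them lower and 200 higher, and of the 108 bright ones 102 were higher and 6 lower.

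The direction of single arrays gives a second view. In 1591 bright genes (23.8%) all 3 vesicle arrays stood higher than the control of their own experiment, and in 871 (13.0%) all 3 stood lower. Over all 30142 genes the order was the reverse, with 3202 higher (10.6%) and 5522 lower (18.3%) and a median difference of −0.012. The vesicle arrays lay above both controls with no overlap in 485 bright genes (7.26%) and below both in 377 (5.64%). With vesicle arrays 1 and 2 alone, 2086 bright genes (31.2%) were higher in both experiments and 1072 (16.0%) lower in both. The shares over all 3 vesicle arrays and over vesicle arrays 1 and 2 are the background for the list counts below. Over the bright genes, the difference from control had a standard deviation of 0.131 for vesicle array 1, 0.124 for vesicle array 2 and 0.127 for vesicle array 3. Vesicle arrays 2 and 3, of the same treatment and experiment, differed from each other with a standard deviation of 0.102. Cell arrays 2 and 3, also of the same treatment and experiment, differed with a standard deviation of 0.163, and the sham array differed from control array 1 with one of 0.141. The 3 vesicle differences were wider than the gap of the vesicle pair and narrower than that of the cell pair. No other arrays share both treatment and experiment, and the arrays of each pair differ in VTS number.

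The experiments, which share no array, agreed in direction for 3477 bright genes and disagreed for 2484, and 720 had a difference of 0 in one of them. Across the 6681 bright genes the difference in experiment 9 and that in experiment 1 had a Pearson correlation of 0.20 and a Spearman correlation of 0.21. These are correlations across genes, which are not independent replicates. The next test takes its spread only from vesicle arrays 2 and 3 and cell arrays 2 and 3, of experiment 1. No control array and no array of experiment 9 enters it. Identical values on 3 or more of the 9 arrays, found in 18418 of 30142 genes, narrow it. The test's lowest adjusted p was far higher without tied genes, with centred arrays, with quantile normalization or with bright genes only. It was lower with only vesicle and control arrays, or without cell array 2 or 3. In limma, the test of the difference between the experiments called 0 of 30142 genes (0.0%), with a lowest adjusted p of 0.0735. With limma's trended and robust moderation in its place, on the same 2 residual degrees of freedom, it called 1956 genes (6.49%), 190 of them bright, so this count depended on how the spread was estimated. Of those bright genes the vesicle difference was higher in experiment 9 for 40 and lower for 150. Tnni3k and Ddr2 were among them, with adjusted p of 0.0243 and 0.022, and no other gene examined. In the first of these tests, at an unadjusted p under 0.05, limma marked 5457 genes (18.1%), 845 of them bright (12.6%). Of those 845 genes, the vesicle difference was higher in experiment 9 for 234 and lower for 611.

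**Figure D1:**
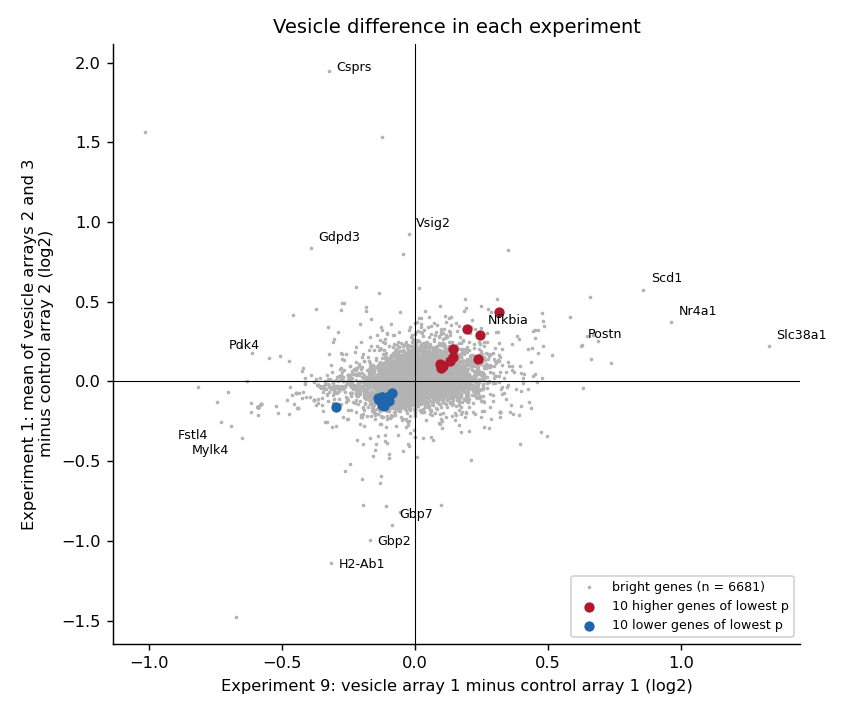
Each point is 1 of 6681 bright genes, with its log2 difference in experiment 9 (vesicle array 1 minus control array 1) on the x axis and in experiment 1 (mean of vesicle arrays 2 and 3 minus control array 2) on the y axis. The 20 genes of lowest p, in colour, lie near the centre. Their like values on both axes follow from choosing them by low p with all 3 vesicle arrays on one side. The widest differences, such as those of Slc38a1, Csprs and H2-Ab1, come mostly from 1 experiment (Pearson correlation 0.20 over all bright genes).

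Among the genes with the lowest p, those higher after vesicles were led by Nfkbia, Igfbp5, Me1 and Cd55. Nfkbia encodes the inhibitor that holds NF-kappaB in the cytoplasm and is itself a target of NF-kappaB. It stood at 8.43, 8.55 and 8.54 on vesicle arrays 1 to 3 and at 8.19 and 8.26 on control arrays 1 and 2. All 3 vesicle arrays thus lay above both controls, by 0.28 ± 0.025 (SE) in the fit with an adjusted p of 0.475, by 0.25 in experiment 9 and 0.29 in experiment 1. The sham array, which received no injection, stood at 8.53, on the same side of control array 1 as the vesicle arrays. Sham and vesicle differences of experiment 9 share that control array, so their values are only set side by side here and below. Of the 18 measured genes of the NF-kappaB list, 5 were bright, and their median difference was 0.047, against 0.0096 over all bright genes. Over all 18 measured genes the median was −0.011, against −0.012 over all 30142 genes. On all 3 vesicle arrays 2 of the 18 were higher (11.1%, against 10.6% of all genes) and 5 lower (27.8%, against 18.3%). The list thus had no common direction. The promoter of Nfkbia is shown because the gene had the lowest p of the bright genes. The window, from RefSeq on GRCm38.p6, runs from 250 bases before the gene's start to 50 after it, at chr12:55492598-55492897 on the minus strand, and the capitals mark a match to the kappaB consensus that begins 29 bases before the start.
Nfkbia promoter: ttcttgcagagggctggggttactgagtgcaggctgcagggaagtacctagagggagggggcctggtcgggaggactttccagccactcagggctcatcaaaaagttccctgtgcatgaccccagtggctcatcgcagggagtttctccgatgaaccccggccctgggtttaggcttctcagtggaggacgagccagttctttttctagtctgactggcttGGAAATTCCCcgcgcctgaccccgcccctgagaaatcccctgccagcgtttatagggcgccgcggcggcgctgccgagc
Searched on both strands, this consensus was found in 8.46% of 32851 promoter windows of the same length and in 10.7% of the 5086 windows of bright genes. A match describes these letters and is not evidence of binding.

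Igfbp5, a binding protein that sets the supply of insulin-like growth factors, stood at 8.91, 8.99 and 9.06 after vesicles and 8.60 and 8.59 after medium, a fitted difference of 0.38 ± 0.049 (adjusted p = 0.591). No vesicle array overlapped a control array, and the sham array stood at 8.98. In the IGF system as a list, 10 of 14 measured genes were bright, with 7 higher on all 3 vesicle arrays and 0 lower. Their median was 0.077, and Igfbp7, a secreted relative, differed by 0.16 ± 0.069. Without control array 2 the median of this list was 0.0008, and with the sham array among the controls 0.042.

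Me1, malic enzyme, which makes NADPH for lipid synthesis, stood at 9.52, 9.35 and 9.38 on the vesicle arrays and 9.38 and 9.16 on the controls. The vesicle and control arrays overlapped here across experiments, with vesicle array 3 level with control array 1, but each vesicle array stood above its own control, by 0.14, 0.19 and 0.21. Scd1, the desaturase that makes monounsaturated fatty acids, showed wider gaps, at 8.76, 8.43 and 8.76 after vesicles and 7.90 and 8.02 after medium. Its fitted difference was 0.67 ± 0.18 with an adjusted p of 0.675, and the sham array stood at 8.25, between the groups. Of 8 bright genes for NADPH and lipid synthesis, 3 were higher on all 3 vesicle arrays (37.5%, against 23.8% of all bright genes) and 1 lower (12.5%, against 13.0%).

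Cd55, decay-accelerating factor, which protects cells from complement, stood at 8.16, 8.21 and 8.27 after vesicles and 7.97 and 7.91 after medium, a difference of 0.27 ± 0.037 with no overlap. All 7 bright complement genes had a fitted difference above 0, as did 3793 of the 6681 bright genes. Of the 7, 3 were higher on all 3 vesicle arrays, and the median was 0.071, against 0.0096 over all bright genes. Over all measured complement genes the median was smaller, 0.021, against −0.012 over all 30142 genes. Of these measured members 4 were higher on all 3 vesicle arrays and 1 lower. The other higher genes of this rank differed by less than 0.2. Cast, or calpastatin, the inhibitor of calpain proteases, differed by 0.15 ± 0.022, and Itgbl1, an integrin beta-like protein, by 0.18 ± 0.031. The receptor phosphatase Ptprm differed by 0.13 ± 0.022, the scaffold protein Mpp6 by 0.10 ± 0.016, the ubiquitin ligase adaptor Kbtbd2 by 0.10 ± 0.014 and the Arf GTPase activator Acap2 by 0.089 ± 0.015. For Kbtbd2 the values were tied, at 7.54 on vesicle arrays 2 and 3, on control array 1 and on the sham array, and such ties narrow the error. With the sham array among the controls, Itgbl1 turned to −0.0098.

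The lower genes of lowest p included mitochondrial and muscle genes. Cox8b and Cox7a1 encode the muscle forms of subunits of cytochrome c oxidase, the last complex of the respiratory chain. Cox8b stood at 9.39, 9.22 and 9.22 on vesicle arrays 1 to 3 and 9.49 and 9.34 on the controls, with a difference of −0.11 ± 0.015 (adjusted p = 0.591). Cox7a1 stood at 11.94, 11.87 and 11.83 against 12.06 and 11.997, with a difference of −0.14 ± 0.021 (adjusted p = 0.604). In Cox7a1 the vesicle arrays lay below both controls, whereas in Cox8b vesicle array 1 lay above control array 2. The sham array was lower still, at 9.22 for Cox8b and 11.81 for Cox7a1. Tnni3k, a kinase of heart muscle that binds troponin I, stood at 7.58, 7.43 and 7.44 after vesicles and 7.87 and 7.60 after medium, a difference of −0.21 ± 0.035, with the sham array at 7.36.

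Rpl3l, the muscle form of ribosomal protein L3, differed by −0.11 ± 0.020, and Mrps16, a mitochondrial ribosomal protein, by −0.076 ± 0.015. Acsf2, a mitochondrial acyl-CoA synthetase family member, differed by −0.13 ± 0.029, and Alkbh2, a DNA repair dioxygenase, by −0.14 ± 0.022. The ubiquitin ligase Rnf128 differed by −0.12 ± 0.017, the membrane protein Eva1b by −0.11 ± 0.016 and P3h4, which assists collagen hydroxylation, by −0.094 ± 0.017. Igfbp5, Kbtbd2 and Cox8b were the genes among those named here that passed without control array 1, at adjusted p of 0.0443, 0.0456 and 0.042.

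**Figure D2:**
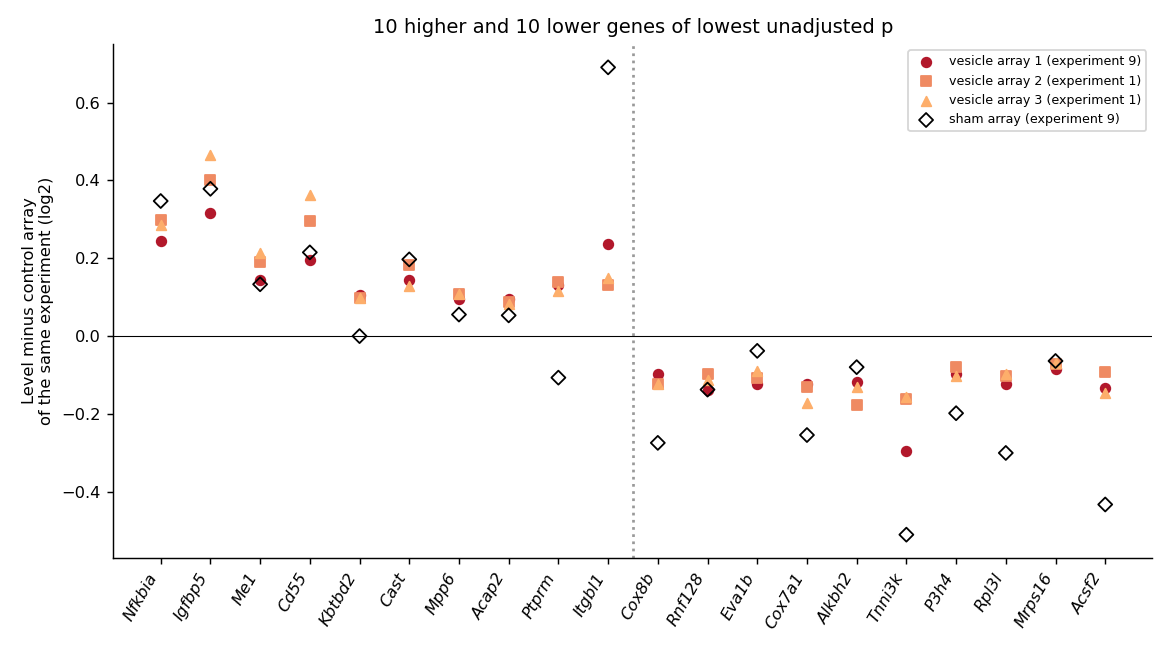
For the 10 higher and 10 lower bright coding genes of lowest p among those with all 3 vesicle arrays on the same side, the y axis gives each array's level minus the control array of its experiment (log2), and open diamonds show the sham array minus control array 1. The vesicle points of a gene lie close together, which the choice by low p favours. The sham diamond of Nfkbia, Igfbp5, Cd55, Cox7a1 and Tnni3k lies on the vesicle side of 0, whereas that of Ptprm lies on the other side.

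The widest differences without overlap between groups were those of Scd1, Slc38a1, Nr4a1, Depp1, Ddit4 and Postn on the higher side. Slc38a1, a glutamine transporter, stood at 7.88, 7.55 and 7.98 after vesicles and 6.55 and 7.54 after medium. Most of its difference of 0.65 ± 0.35 came from the low value of control array 1, with 1.33 in experiment 9 and 0.22 in experiment 1. Nr4a1, an immediate early nuclear receptor, stood at 8.63, 8.86 and 8.71 against 7.67 and 8.42, with 0.96 and 0.37 in the 2 experiments. Depp1 and Ddit4 are both induced by FOXO factors, fasting or stress. Depp1 stood at 8.22, 8.48 and 8.34 after vesicles and 7.56 and 7.89 after medium, and Ddit4, an inhibitor of mTORC1, at 7.47, 7.53 and 7.64 against 6.997 and 7.15. For these 2 genes the gap was alike in both experiments, 0.66 and 0.53 for Depp1 and 0.48 and 0.43 for Ddit4, with standard errors of 0.20 and 0.18. The control means of Slc38a1 and Ddit4, 7.05 and 7.08, lay below the brightness limit.

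On the lower side these were Gbp2, Gbp7, Mylk4, Acot2, H2-Q4 and Sntb1. Mylk4, a myosin light chain kinase family member, stood at 8.03, 8.07 and 7.65 after vesicles and 8.68 and 8.22 after medium. Acot2, a mitochondrial acyl-CoA thioesterase, stood at 10.40, 10.18 and 10.01 against 10.53 and 10.73, and Sntb1, a syntrophin of the dystrophin complex, at 7.40, 7.40 and 7.27 against 7.55 and 7.80. Their differences were −0.44 ± 0.21, −0.42 ± 0.20 and −0.32 ± 0.12, and the adjusted p was 0.675 for each. The sham array stood at 7.83, 10.01 and 7.40 for these genes, below both controls in each case. The guanylate-binding proteins and H2-Q4 are described with the immune genes. The vesicle mean of H2-Q4, 7.19, lay below the brightness limit.

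Several of the widest gaps within 1 experiment were small or opposite in the other. In experiment 9 the higher genes by size were Slc38a1, Nr4a1, Scd1, Timp4, a tissue inhibitor of metalloproteinases, at 0.74, and Smc6, of the SMC5/6 genome stability complex, at 0.66. In experiment 1 Timp4 and Smc6 differed by only 0.12 and 0.14. The lower genes of experiment 9 were Fstl4 (−0.73), Mylk4 (−0.65), Cmss1 (−0.63), Ralgapa2 (−0.61) and Pdk4 (−0.55). Pdk4, which blocks pyruvate oxidation in favour of fatty acids, stood at 10.61 against 11.15 in experiment 9, and at 10.94 and 11.09 against 10.87 in experiment 1. Its direction thus differed between the experiments, with an unadjusted p of 0.0203 and an adjusted p of 0.173 for the difference in limma's test.

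In experiment 1 the higher genes by size were Csprs, Vsig2, Gdpd3, Rfk and Depp1. Csprs, named as a component of Sp100-rs, stood at 8.57, 6.94 and 8.51 on the vesicle arrays and 8.90 and 5.78 on the controls, with control array 2 the lowest and vesicle array 2 next. For Csprs, Vsig2, Gdpd3 and Rfk the difference in experiment 9 was below 0, at −0.32, −0.024, −0.39 and −0.18. The lower genes of experiment 1 were H2-Ab1, Gbp2, Gbp4, Hamp and Serpina3n. Hamp, the iron hormone hepcidin, stood at 7.69, 7.52 and 7.87 after vesicles and 7.80 and 8.47 after medium. Serpina3n, an acute phase serpin, stood at 8.16, 8.47 and 8.73 against 8.06 and 9.37. Control array 2 held the highest level of the 5 arrays for both genes. Without it the Serpina3n difference was 0.0048.

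Genes of the scar and its matrix stood higher after vesicles in both experiments, though none passed a test alone. Of the 22 collagen genes measured, 13 were bright, and 12 of these were higher on all 3 vesicle arrays and 0 lower, against 23.8% and 13.0% of all bright genes. Their median difference was 0.14, with 0.19 in experiment 9 and 0.094 in experiment 1, against 0.0096 for all bright genes. Of the 12 that exceeded the limit in both groups, 11 were higher. Col5a1, a fibrillar collagen, was the exception, with 0.18, −0.026 and 0.010 on vesicle arrays 1 to 3. The main scar collagens stood close to control in experiment 1: Col1a1 lay at 9.27, 9.37 and 9.40 after vesicles and 8.86 and 9.34 after medium, and Col3a1 at 9.11, 9.36 and 9.43 against 8.92 and 9.27. For Col1a1 the difference was 0.41 in experiment 9 and 0.044 in experiment 1. Col4a2, a basement membrane collagen, had the lowest p of the list at 0.17 ± 0.046.

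Matricellular proteins and proteoglycans, which sit between collagen and cells, had the highest median of the lists described, 0.20. Of 24 bright members, 17 were higher on all 3 vesicle arrays and 0 lower, and on vesicle arrays 1 and 2 alone 21 were higher and 0 lower. Postn, or periostin, made by activated fibroblasts, stood at 9.54, 9.78 and 9.72 after vesicles and 8.92 and 9.52 after medium, a difference of 0.40 ± 0.12 with no overlap. Aspn, or asporin, a small leucine-rich proteoglycan, stood at 9.21, 9.09 and 8.88 against 8.77 and 8.67, and Lum, or lumican, at 9.15, 9.14 and 8.97 against 8.97 and 8.80. Sparcl1, an anti-adhesive matricellular protein, stood at 11.56, 11.52 and 11.40 against 11.38 and 11.20. For Aspn, Lum and Sparcl1 each vesicle array exceeded its own control, by 0.17 to 0.44. On the sham array Postn stood at 9.92, Aspn at 9.33 and Lum at 9.26, above control array 1 like the vesicle array of that experiment. With the sham array among the controls the list medians were 0.076 for matricellular genes and 0.063 for collagens, and 0.061 for the fibroblast markers below. Without vesicle array 1 the collagen median was 0.086.

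Enzymes that cut or cross-link the matrix had 13 bright genes of 22, with 7 higher on all 3 vesicle arrays and 0 lower and a median of 0.10. Mmp2, a gelatinase, stood at 8.76, 8.99 and 8.74 after vesicles and 8.45 and 8.56 after medium, a difference of 0.30 ± 0.12 (adjusted p = 0.675). Timp3, which inhibits such proteases, differed by 0.21 ± 0.10 and Timp4 by 0.37 ± 0.16. Without vesicle array 1 the median of this list was 0.052.

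Cells that make matrix or wrap vessels were followed by their markers. Of 15 bright fibroblast markers, 10 were higher on all 3 vesicle arrays and 0 lower, with a median of 0.12. Of the 13 that exceeded the limit in both groups, 8 were higher. Ddr2, a collagen receptor of fibroblasts, stood at 7.94, 7.90 and 7.91 after vesicles and 7.81 and 7.59 after medium, Dpep1, a dipeptidase, at 8.21, 8.26 and 8.21 against 8.01 and 8.04, and Serpinf1, the secreted factor PEDF, exceeded its own control by 0.26, 0.18 and 0.087 on vesicle arrays 1 to 3. For all 3 of these genes each vesicle array lay above both controls. Of 11 bright mural cell markers, 7 were higher on all 3 arrays and 0 lower, with a median of 0.10, or 0.068 without control array 2. Pdgfrb, the PDGF receptor of pericytes, stood at 9.06, 9.04 and 8.91 against 8.84 and 8.74 without overlap. Acta2, smooth muscle actin, stood at 9.39, 10.41 and 10.24 against 9.08 and 9.81, a difference of 0.42 ± 0.16. Its levels were higher in experiment 1 than in experiment 9 in both groups, so that vesicle array 1 lay below control array 2. Fewer or more such cells, or more RNA per cell, cannot be told apart from these values.

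Endothelial markers showed a smaller shift. Of 26 bright members 11 were higher on all 3 vesicle arrays (42.3%, against 23.8% of all bright genes) and 3 lower (11.5%, against 13.0%). The median of this list, 0.050, became −0.0092 without control array 2 and 0.095 without control array 1. Rgcc, a complement-responsive regulator of the cell cycle, differed by 0.30 ± 0.075, whereas Dll4, the Notch ligand of arterial and tip cells, differed by −0.086 ± 0.032. Of 10 bright vascular growth factor genes, 3 were higher on all 3 vesicle arrays and 1 lower, and 4 and 2 on vesicle arrays 1 and 2. Vegfa stood at 9.81, 9.92 and 9.81 after vesicles and 9.80 and 9.72 after medium, a difference of 0.071 ± 0.089. Efnb2, the arterial ephrin, differed by 0.17 ± 0.044 and Fgf18 by −0.092 ± 0.026.

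The 14 bright immediate early genes, switched on within minutes by stress or growth signals, had 8 members higher on all 3 vesicle arrays and 0 lower, and 8 and 1 on vesicle arrays 1 and 2. Their median was 0.096, with 0.24 in experiment 9 and 0.11 in experiment 1, and −0.011 without vesicle array 1. Without control array 1 it was 0.18, and without control array 2 0.063. Klf6, a zinc finger factor, stood at 8.87, 8.77 and 8.86 after vesicles and 8.39 and 8.46 after medium, with no overlap. Ccn1, a matricellular protein with immediate early kinetics, stood at 9.95, 10.31 and 10.20 against 9.31 and 9.97, and Egr1 at 8.18, 8.44 and 8.31 against 7.73 and 8.10. For Ccn1 and Egr1 each vesicle array exceeded its own control, by 0.20 to 0.64, but vesicle array 1 lay below control array 2 for Ccn1. Per1, a clock gene that also responds quickly to stress hormones, differed by 0.34 ± 0.15. Of 13 bright clock genes 4 were higher on all 3 arrays (30.8%, against 23.8% of all bright genes) and 1 lower (7.69%, against 13.0%). On vesicle arrays 1 and 2 these counts were 7 and 1.

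Among stress responses, 9 of 15 bright hypoxia targets were higher on all 3 vesicle arrays and 1 lower, with a median of 0.052. Without control array 2 this median was 0.015, and on vesicle arrays 1 and 2 alone 10 were higher and 2 lower. Of the 14 that exceeded the brightness limit in both groups, 8 were higher on all 3 arrays and 1 lower, with a median of 0.049. Bnip3, a mitophagy receptor, differed by 0.13 ± 0.052. Txnip, which binds thioredoxin and limits glucose uptake, stood at 11.28, 11.60 and 11.44 after vesicles and 11.03 and 11.05 after medium, a difference of 0.38 ± 0.072 with no overlap and an adjusted p of 0.675. The sham array stood at 11.27, close to vesicle array 1. Oxidative stress defence as a list showed no common direction, with 7 of 19 bright genes higher on all 3 arrays (36.8%, against 23.8% of all bright genes) and 4 lower (21.1%, against 13.0%). Its median of 0.015 became −0.0026, −0.016 and −0.023 without vesicle array 1, vesicle array 3 and control array 2 in turn, and 0.023 without vesicle array 2. Gsr, glutathione reductase, differed by 0.057 ± 0.018. Of 19 bright vesicle and membrane traffic genes, 5 were higher on all 3 arrays (26.3%, against 23.8% of all bright genes) and 0 lower (against 13.0%). The share of higher genes was thus close to that of all bright genes, and the median was 0.018 against 0.0096. On vesicle arrays 1 and 2, 8 were higher and 0 lower, against 31.2% and 16.0% of all bright genes. Cd9, a tetraspanin often used to detect exosomes, differed by 0.12 ± 0.041.

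**Figure D3:**
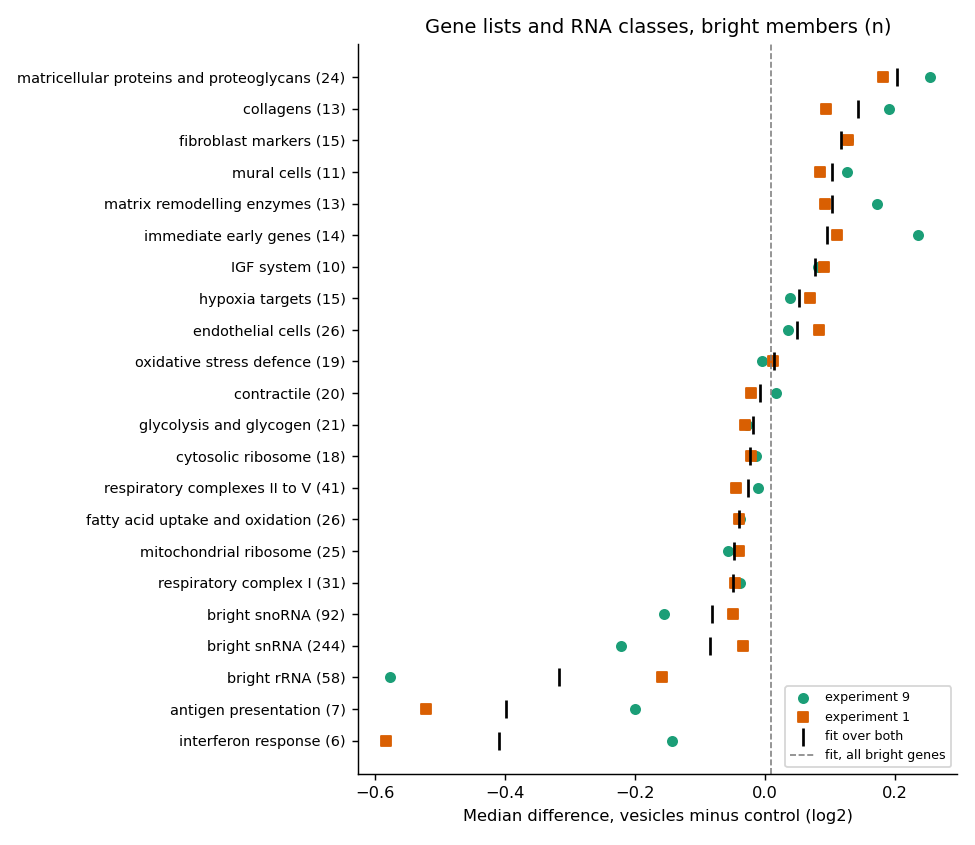
Median log2 difference between vesicle and control arrays over the bright members of each list or RNA class (their number in brackets), for experiment 9, experiment 1 and the fit over both, with a dashed line at the median of all bright genes (0.0096). Matrix, fibroblast and mural lists lie to the right in both experiments, and interferon and antigen presentation genes (experiment 1) and ribosomal RNA (experiment 9) lie farthest to the left.

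Mitochondrial genes differed by little, and with lower more often than higher values after vesicles. Of 31 bright subunits of respiratory complex I, 15 were lower on all 3 vesicle arrays and 0 higher, with a median of −0.050, −0.038 in experiment 9 and −0.046 in experiment 1. This median is about the size of the standard error of a single typical bright gene, 0.049, which is not the error of a median. On leaving out 1 array it ran from −0.059 to −0.028. Ndufa5, an accessory subunit, stood at 8.64, 8.57 and 8.54 after vesicles and 8.76 and 8.72 after medium, below both controls on each array. Complexes II to V had 12 of 41 bright genes lower on all 3 arrays (29.3%, against 13.0% of all bright genes) and 2 higher (4.88%, against 23.8%). The median of this list was −0.026. Sdha, the catalytic subunit of complex II, went the other way, at 10.23, 10.09 and 10.09 against 10.09 and 9.96, a difference of 0.14 ± 0.036. Vesicle array 3 was the lowest of the vesicle arrays over both lists, with median differences of −0.094 and −0.075. On vesicle arrays 1 and 2 alone, 16.0% of all bright genes were lower and 31.2% higher. In complex I 15 genes were lower and 4 higher there, and in complexes II to V 13 were lower and 8 higher. Without vesicle array 3 the medians were −0.028 and −0.010, and with arrays centred on the median −0.028 and −0.0046. For complexes II to V the median was −0.0068 without control array 2 and −0.043 without vesicle array 2.

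Fatty acid uptake and oxidation had 9 of 26 bright genes lower on all 3 vesicle arrays and 1 higher, with a median of −0.040. Slc27a1, a fatty acid transport protein, stood at 8.48, 8.39 and 8.45 after vesicles and 8.62 and 8.59 after medium. Ech1, a dienoyl-CoA isomerase, stood at 9.66, 9.46 and 9.50 against 9.72 and 9.64. Slc27a1 lay below both controls on all 3 arrays, whereas vesicle array 1 overlapped control array 2 for Ech1. On vesicle arrays 1 and 2 alone, 9 genes of the list were lower and 7 higher. The median was −0.0097 without vesicle array 3, −0.063 without vesicle array 2 and −0.018 with arrays centred on the median. Glycolysis and glycogen genes had 9 of 21 lower on all 3 arrays and 0 higher, led by Eno3, the muscle enolase, at −0.10 ± 0.025. Their median of −0.019 turned to 0.0025 with arrays centred on the median, and was −0.049 without vesicle array 1 and −0.050 without control array 2. On vesicle arrays 1 and 2 alone, 10 were lower and 2 higher. With the sham array among the controls the medians were −0.021 for complex I, −0.0052 for complexes II to V and 0.0010 for fatty acid genes.

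The ribosome lists were of the same kind: 7 of 18 bright cytosolic ribosome genes were lower on all 3 vesicle arrays and 0 higher, and 6 of 25 mitochondrial ribosome genes were lower and 1 higher. Rpl35 differed by −0.091 ± 0.022, Rps15 by −0.14 ± 0.035 and Mrps14 by −0.077 ± 0.024. On the sham array Rps15 was level with control array 1, at 8.50. Centring each array on its median moved the median of the cytosolic list from −0.023 to −0.0017, so its shift is within that of the scaling. It was −0.0029 without control array 2, and −0.015 and −0.0099 without vesicle arrays 1 and 2 in turn. The median of the mitochondrial list went from −0.048 to −0.027 on centring.

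Genes of the contractile apparatus were lower more often than higher, with a median near 0. Of 20 bright genes 8 were lower on all 3 vesicle arrays (against 13.0% of all bright genes) and 3 higher, with a median of −0.0076. Over all 23 measured genes 9 were lower (39.1%, against 18.3% of all genes) and 3 higher (13.0%, against 10.6%), with a median of −0.027. On vesicle arrays 1 and 2 alone 8 bright genes were lower and 7 higher, and the median was 0.015 without vesicle array 3 and 0.014 with arrays centred on the median. Without vesicle array 1 it was −0.029 and without control array 1 −0.019. Ttn, the giant spring protein titin, stood at 12.02, 11.93 and 11.90 after vesicles and 11.93 and 11.82 after medium, a difference of 0.089 ± 0.028. Myl2, the ventricular regulatory light chain, stood at 9.69, 9.46 and 9.44 against 9.76 and 9.59, and Tnni3, cardiac troponin I, at 10.49, 10.44 and 10.42 against 10.55 and 10.53. Tnni3 lay below both controls on every vesicle array, by less than 0.15. Myl7, the atrial light chain, differed by −0.33 ± 0.12. Its levels were 7.21 and 7.31 in experiment 9 and from 8.003 to 8.55 in experiment 1, so the experiments differed more than the treatments.

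Genes used as readouts of heart failure were level between the groups or split by experiment. Nppa, the atrial natriuretic peptide, stood at 13.19, 13.24 and 13.19 after vesicles and 12.97 and 13.19 after medium, and Nppb, the B-type peptide, at 10.10, 10.41 and 10.24 against 9.71 and 10.72. In experiment 9 the vesicle array was above its control for both, and in experiment 1 the 2 vesicle arrays were on either side of the control for Nppa and below it for Nppb. The myosin heavy chains differed by 0.012 ± 0.024 for Myh6, the adult form, and 0.077 ± 0.089 for Myh7, the fetal form. Atp2a2, the calcium pump SERCA2, stood at 12.81, 12.76 and 12.78 against 12.79 and 12.74, a difference of 0.022 ± 0.020.

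Immune genes gave the lowest medians among the coding lists, and most of that came from experiment 1. Of 31 measured interferon response genes only 6 were bright: 5 of them were lower on all 3 vesicle arrays and 0 higher. Their median difference was −0.41, with −0.14 in experiment 9 and −0.58 in experiment 1. Irgm1, an immunity-related GTPase, passed the limit only through the controls, and of the other 5 genes 4 were lower on all 3 arrays, with a median of −0.51. Over all 31 measured genes the median was −0.16, with 14 lower on all 3 arrays (45.2%, against 18.3% of all genes) and 0 higher (against 10.6%). Not all members were lower in experiment 1. Ifit1, Ifit2, Ifit3, Oas1a, Oasl2 and Usp18, none of them bright, stood above control there by 0.16 to 0.40. On vesicle array 3 they exceeded control array 2 by 0.41 to 0.69, whereas all were below control in experiment 9. Igtp, Iigp1, Irgm2 and Gbp3, not bright either, were lower on all 3 arrays. Of 17 measured antigen presentation genes 7 were bright, 6 of them lower on all 3 arrays and 0 higher, with medians of −0.40 in the fit, −0.20 in experiment 9 and −0.52 in experiment 1. Without H2-Q4, which also passed only through the controls, 5 of 6 were lower, with a median of −0.35. Over all 17 measured genes 14 were lower on all 3 arrays (82.4%, against 18.3% of all genes) and 0 higher (against 10.6%), with a median of −0.27. On vesicle arrays 1 and 2 alone, 6 of 6 and 6 of 7 genes were lower.

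The guanylate-binding proteins are GTPases that interferon induces strongly. Gbp2 stood at 7.46, 7.08 and 7.52 on vesicle arrays 1 to 3 and 7.63 and 8.29 on control arrays 1 and 2, Gbp4 at 7.81, 7.64 and 8.06 against 8.01 and 8.62, and Gbp7 at 8.22, 7.53 and 8.28 against 8.30 and 8.81. For each of the 3 genes control array 2 was the highest and vesicle array 2 the lowest of the 5 arrays. In experiment 9 the differences were only −0.17, −0.19 and −0.086, and the sham array stood at 7.63, 7.95 and 8.30, near control array 1. The fitted differences were −0.64 ± 0.24, −0.51 ± 0.30 and −0.55 ± 0.39, with adjusted p of 0.675, 0.678 and 0.714. Stat2, which carries the type I interferon signal to the nucleus, stood at 7.46, 7.12 and 7.34 after vesicles and 7.60 and 7.62 after medium. For Stat2 the sham array stood at 7.30, below both controls. Ifitm3, an antiviral membrane protein, was the bright interferon gene without a common direction, at 9.45, 9.34 and 9.68 against 9.52 and 9.55.

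The promoters of Gbp2 and Gbp7 are shown because these genes had the widest gaps without overlap on the lower side. Both windows are from RefSeq on GRCm38.p6, run from 250 bases before the start to 50 after it, and lie on the plus strand at chr3:142620413-142620712 and chr3:142530086-142530385. The capitals mark a match to the core of the interferon-stimulated response element, searched as 2 copies of TTTC with any 2 bases (N) between them, which begins 59 bases before the start in Gbp2 and 53 in Gbp7.
Gbp2 promoter: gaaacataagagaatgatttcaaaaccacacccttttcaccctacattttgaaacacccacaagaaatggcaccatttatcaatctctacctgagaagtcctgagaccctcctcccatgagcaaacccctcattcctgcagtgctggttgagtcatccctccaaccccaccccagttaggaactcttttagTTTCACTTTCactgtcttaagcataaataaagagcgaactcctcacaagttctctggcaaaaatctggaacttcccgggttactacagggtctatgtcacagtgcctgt
Gbp7 promoter: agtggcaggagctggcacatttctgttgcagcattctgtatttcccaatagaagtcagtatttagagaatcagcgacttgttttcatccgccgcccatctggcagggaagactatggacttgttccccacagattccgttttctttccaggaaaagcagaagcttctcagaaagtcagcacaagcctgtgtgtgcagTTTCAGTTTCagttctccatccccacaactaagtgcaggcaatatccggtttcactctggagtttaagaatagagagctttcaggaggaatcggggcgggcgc
Searched on both strands, this core was found in 3.44% of 32851 promoter windows and in 2.30% of the 5086 windows of bright genes. Of the bright interferon and antigen presentation genes with a window, B2m, Gbp2, Gbp7, Ifitm3, Irgm1 and Stat2 held it, and H2-D1, H2-K1, H2-Q4, Psmb10 and Tapbp did not. The Gbp2 window also holds 1 match to the kappaB consensus, left in lower case, which does not overlap the core. A match is a description of the letters and not a site of binding.

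The class I molecules, which show peptides from inside the cell, followed the same order of arrays. H2-D1 stood at 8.17, 8.07 and 8.47 after vesicles and 8.43 and 8.83 after medium, H2-K1 at 8.20, 8.03 and 8.46 against 8.40 and 8.86, and H2-Q4, a nonclassical relative, at 7.17, 6.995 and 7.41 against 7.42 and 7.72. Their light chain B2m stood at 11.38, 11.21 and 11.47 against 11.48 and 11.72. In each of these 4 genes vesicle array 2 was the lowest and control array 2 the highest of the 5 arrays. The sham array stood below control array 1 for H2-D1, H2-K1 and H2-Q4, at 8.31, 8.30 and 7.28, and above it for B2m, at 11.52. These class I genes have near-identical relatives whose transcripts a probe set may share, so their values may not be independent. H2-Ab1, a class II chain of antigen-presenting cells, had the widest gap, at 7.21, 7.17 and 7.65 against 7.52 and 8.55, −0.31 in experiment 9 and −1.14 in experiment 1. Psmb10, an immunoproteasome subunit, differed by −0.10 ± 0.037.

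These results leaned on 2 arrays. Without control array 2 the median was −0.20 for interferon and −0.26 for antigen presentation genes, and without vesicle array 2 it was −0.26 and −0.28. With the sham array among the controls these medians were −0.35 and −0.33. With the brightness limit at the 99th percentile the interferon median was −0.074, that of Ifitm3 alone. Markers of other cells were also high on control array 2. The mean over 20 T and NK cell markers was 4.76 there and 4.57 to 4.58 on the other 4 arrays. None of these markers was bright, and the means lay far below the brightness limit. The median over all genes was highest on control array 2 as well, at 5.63 against 5.57 to 5.60 on the other 4. Means of the granulocyte, B cell, blood cell and thymus markers were highest there too. The mean over 27 macrophage markers was 6.84 on control array 2, 6.86 on vesicle array 3 and 6.49 to 6.60 on the other 3. The part of these cells in the immune differences was not tested. Among single macrophage genes, Ctss, a lysosomal protease, stood at 7.20, 7.18 and 7.75 after vesicles and 7.25 and 8.28 after medium. Mrc1 and Lyve1, of resident macrophages, stood at 8.02, 8.36 and 8.58 against 7.92 and 8.23, and at 7.77, 8.24 and 8.58 against 7.90 and 7.86, and without control array 2 Lyve1 turned from 0.25 to −0.096. Of 7 bright macrophage genes 1 was higher on all 3 vesicle arrays (14.3%, against 23.8% of all bright genes) and 1 lower (14.3%, against 13.0%). On vesicle arrays 1 and 2, 1 was higher and 3 lower, against 31.2% and 16.0% of all bright genes.

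**Figure D4:**
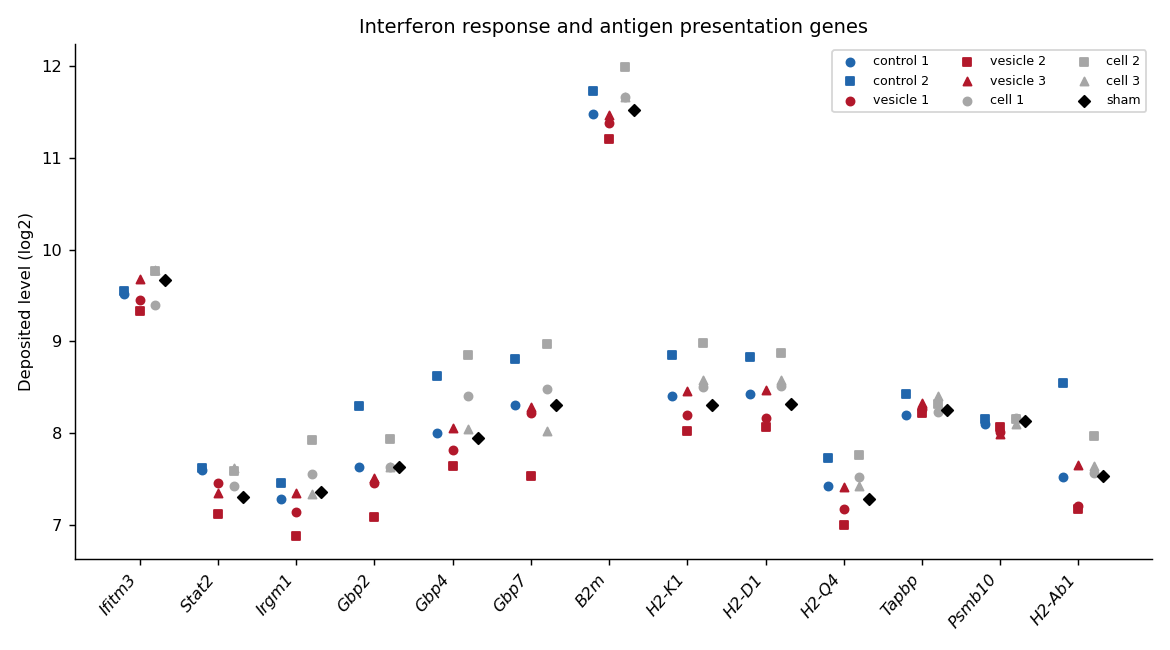
Deposited log2 levels of the 6 bright interferon response genes (left) and 7 bright antigen presentation genes (right) on every array, with controls in blue, vesicle arrays in red, cell arrays in grey and the sham array in black, and circles for experiment 9, squares and triangles for experiment 1. Control array 2 and cell array 2 stand high and vesicle array 2 low for most of these genes (H2-K1: 8.86, 8.98 and 8.03).

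Short noncoding RNAs were also read by the array. Of 62 measured ribosomal RNA genes 58 were bright, 43 of them lower on all 3 vesicle arrays and 0 higher, with medians of −0.32 in the fit, −0.58 in experiment 9 and −0.16 in experiment 1. These are not independent: 48 of the 58 are named as copies of 5S ribosomal RNA, and 32 lay within 0.1 of the 5S gene Rn5s on all 9 arrays. Rn5s stood at 10.26, 10.89 and 10.59 after vesicles and 10.85 and 10.90 after medium, so vesicle arrays 1 and 3 were low and vesicle array 2 was level with its control. The sham array stood at 10.70 and the cell arrays between 10.93 and 11.06. Without vesicle array 1 the class median was −0.15.

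The 92 bright small nucleolar RNAs, guides for modifying ribosomal RNA, had 50 genes lower on all 3 vesicle arrays and 1 higher, and 59 and 4 on vesicle arrays 1 and 2, with a median of −0.081, or −0.018 without vesicle array 1. Snord69 stood at 11.31, 11.45 and 11.51 after vesicles and 11.56 and 11.72 after medium, Snord89 at 7.63, 7.74 and 7.72 against 7.94 and 8.02, and Snord35a at 9.07, 9.11 and 9.21 against 9.23 and 9.31. In all 3 the vesicle arrays lay below both controls, and the sham array was lower than both controls as well, at 11.49, 7.59 and 9.15. The 244 bright small nuclear RNA genes, mostly copies of spliceosomal RNAs, had 61 lower on all 3 arrays and 0 higher, and 62 and 21 on vesicle arrays 1 and 2. Their median was −0.085, but it turned to 0.082 without vesicle array 1. It was −0.14 without vesicle array 2, and −0.14 and −0.023 without control arrays 1 and 2 in turn. Many of these genes share near-identical sequence. The share of such RNA in a library also depends on extraction and labelling, whose part was not tested.

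**Figure D5:**
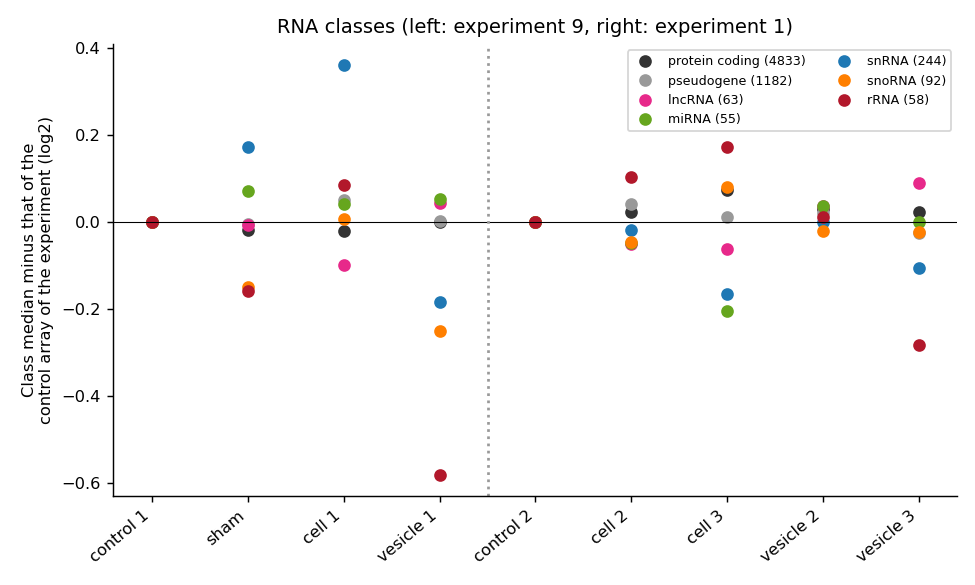
Median log2 level of each RNA class over its bright genes (number in brackets), minus the control array of the same experiment, for experiment 9 on the left and experiment 1 on the right. Coding genes and pseudogenes stay within 0.1 of 0 on every array, whereas ribosomal RNA is low on vesicle arrays 1 and 3 (10.25 and 10.57, against 10.84 and 10.85 on the controls) and small nuclear RNA is high on cell array 1.

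Of 55 bright microRNA genes, 13 were higher on all 3 vesicle arrays (23.6%, against 23.8% of all bright genes) and 14 lower (25.5%, against 13.0%). An unadjusted p under 0.05 was reached by 9 (16.4%, against 7.14%), and 0 passed adjustment in limma. The array reads the transcript of the gene, not the mature microRNA. Among these 9 genes some lay above both controls on every vesicle array, with fitted differences of 0.059, 0.099 and 0.28. Another, not shown, lay below both controls with a fitted difference of −0.22. The 2 genes shown, Mir194-2 and Mir455, also lay below both controls on every vesicle array, so they stand for 1 direction only. They were chosen after their values were seen. Their mature forms from RefSeq on GRCm38.p6 are given below with the seed, bases 2 to 8, in capitals, and the 4 seeds differ from each other.
miR-194-5p, chr19:6264658-6264679, plus strand: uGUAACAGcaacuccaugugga
miR-194-2-3p, chr19:6264694-6264715, plus strand: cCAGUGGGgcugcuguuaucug
miR-455-5p, chr4:63256867-63256888, plus strand: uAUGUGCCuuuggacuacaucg
miR-455-3p, chr4:63256904-63256924, plus strand: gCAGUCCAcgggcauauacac
Mir194-2 stood at 7.20, 7.37 and 7.36 on vesicle arrays 1 to 3 and 7.40 and 7.58 on control arrays 1 and 2, a difference of −0.20 ± 0.033 with an adjusted p of 0.648. Its gap was −0.20 in experiment 9 and −0.21 in experiment 1. Mir455 stood at 7.53, 7.52 and 7.52 against 7.59 and 7.67, a difference of −0.11 ± 0.041 with an adjusted p of 0.675. The sham array stood at 7.37 for Mir194-2 and 7.55 for Mir455, below both controls.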

How the data were processed

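RNA from whole frozen hearts, extracted with Trizol, was labelled with biotin for Affymetrix whole-transcript arrays, per the labels' protocols. The authors deposited 1 log2 value per probe set and array. Partek is named in the submitters' processing notes, and how background was corrected, how values were normalized and the array's build were not given in the sources used here. The scale was read as log2 from the range of the values, 1.55 to 14.2. Of 80202 probe sets, 30604 had 1 gene symbol in the platform annotation, 2146 had several and were left out, and the rest were unnamed or controls. Through Entrez numbers 22818 matched the RefSeq table of GRCm38.p6. The brightest probe set stood for a gene, giving 30142 genes. Of the bright genes 2767 had identical values on 3 or more of the 9 arrays, which narrows their spread.

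Differences were fitted with lmFit and eBayes (limma 3.58.1, R 4.3.3) over the vesicle, control and cell arrays, with treatment and experiment as terms (4 residual degrees of freedom), two-sided, with Benjamini-Hochberg adjustment over all genes. Values after ± are standard errors. A second fit with 1 mean per treatment and experiment tested the difference between experiments. Its 2 residual degrees of freedom came from the vesicle and cell arrays of experiment 1. Lists were described by counts and medians, with no set test. The steps were tested on simulated data. The number of arrays limits the precision.

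Named genes are bright coding genes: 10 a direction of lowest p with all 3 vesicle arrays on one side of their controls, 6 a direction of largest difference without overlap, 5 a direction of largest difference within each experiment, up to 4 of lowest p in a list described, and 10 genes of heart failure, scar and vessels. Sftpc, Tnnt2, Rn5s, the small nucleolar RNAs, the microRNAs, Col5a1, H2-K1, B2m, Irgm1, Ifitm3 and Tapbp were named after their values were seen. So were Ifit1, Ifit2, Ifit3, Oas1a, Oasl2, Usp18, Igtp, Iigp1, Irgm2 and Gbp3, which were not bright. The members and lists were chosen with earlier results of these data known.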

Additional observations from a re-analysis of the deposited data

How the results depend on the processing

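In each of 19 other settings run but 1, 0 genes passed an adjusted p of 0.05 between vesicles and control; without control array 1 it was 823, so the range on leaving out 1 array was 0 to 823. The difference between experiments called 0 genes in each setting run but 1, and 1956 with trended and robust moderation. It could not be fitted without the experiment term, or without vesicle array 1 or either control array. The experiment pairs vesicle with control arrays in the fit. With the VTS number as replicate block in its place, 0 genes were called between treatments, at a lowest adjusted p of 0.751, and 0 between experiments. Bright genes at an unadjusted p under 0.05 numbered 331 higher and 146 lower. With only vesicle and control arrays 582 were higher. Without the experiment term the numbers were 108 and 85, with quantile normalization 219 and 256, without tied genes 108 and 93, and with the brightness limit at the 99th percentile 96 and 44. Centring arrays on the median gave 68 lower. Leaving out 1 array gave 162 to 750 higher and 116 to 237 lower. The order of higher and lower counts thus depended on the normalization and on single arrays, as it turned without vesicle array 2 (163 and 237) and without control array 2 (162 and 193). The counts for vesicle arrays 1 and 2 alone, and those for genes above the brightness limit in both groups, are choices made after seeing the data.

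Of 109 genes examined, 92 kept their direction in every setting run. With the sham array among the controls Itgbl1 was −0.0098, Nppa −0.0055 and Dll4 0.044. Without the experiment term Nppb was 0.038 and Myh6 −0.0009, and Myh6 was −0.028 with quantile normalization. Other turns came on leaving out 1 array. Over these settings Csprs ran from −1.17 to 2.37, Vsig2 from −0.048 to 0.93, Rfk from −0.21 to 0.48, Serpina3n from −0.73 to 0.0048, Vegfa from −0.065 to 0.18, Lyve1 from −0.0955 to 0.53 and Tapbp from −0.13 to 0.030, each turning without control array 2. Fstl4 ran from −0.80 to 0.024 and Myh6 from −0.015 to 0.020, turning without vesicle array 1, and Ralgapa2 from −0.43 to 0.11 and Pdk4 from −0.47 to 0.11, turning without vesicle array 1 or control array 1. Myh7 ran from −0.016 to 0.19, turning without control array 1. Nppb ran from −0.32 to 0.21, turning without vesicle array 3 or control array 2, and Ifitm3 from −0.18 to 0.029, turning without vesicle array 2 or control array 1. The cause of these turns was not tested.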
